A study of Mus musculus with 40 samples.

Results

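The genes described here encode the proteins of the cytosolic ribosome, measured by RNA sequencing of mouse whole blood. They were chosen by name and annotation alone: protein-coding genes whose symbol starts with Rpl or Rps followed by a digit, plus Rplp0, Rplp1, Rplp2 and Rpsa. The rule left out 10 ribosomal S6 kinase symbols and 8 symbols that end in -ps and a number, although the table annotates these as protein-coding, and it found 86 members among the 54532 genes of the deposited table. By role, 43 members encode proteins of the large subunit, 31 encode proteins of the small subunit and 3 encode the acidic stalk (Rplp0, Rplp1 and Rplp2). A further 7 are paralogs or copies (Rpl3l, Rpl10l, Rpl22l1, Rpl36al, Rpl39l, Rps27l and Rps27rt), and 2 carry the name without being ribosomal proteins, namely Rps19bp1, which encodes a protein that binds RPS19, and Rpl7l1, a relative of Rpl7. At a level of 1 FPKM or more (fragments scaled to gene length in kilobases and, here, by a median-of-ratios factor per library) in at least 3 libraries, 82 members and 11829 genes in all were kept for testing. The 4 members that missed this filter were Rpl36al at 0.09 FPKM, Rpl39l at 0.09 FPKM, Rpl3l at 0.07 FPKM and Rpl10l, which was at 0 in all 40 libraries.

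Blood was taken from the orbital venous plexus of 7-week-old female mice that were wild type (Ifnar1+/+) or labelled Ifnar1-/-, a loss of the type I interferon receptor subunit. Mice received the polyamine spermine or phosphate-buffered saline (PBS) over 3 days and then pristane, a hydrocarbon oil used to induce a lupus-like disease, and were bled on day 4 or day 6. The groups were Ifnar1-/- mice with PBS and pristane (5 at day 4, 5 at day 6), wild-type mice with spermine and pristane (6 at day 4, 6 at day 6), wild-type mice with PBS and pristane (6 at day 4, 6 at day 6), and uninduced Ifnar1-/- and wild-type mice (3 each). For the uninduced mice no pretreatment is labelled, so against them pristane and PBS cannot be told apart. All RNA was selected on its poly-A tail. Each library is 1 mouse, so p-values measure the spread between mice.

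The ribosome translates messenger RNA into protein. The small subunit holds the messenger and the decoding site, the large subunit forms peptide bonds, and the acidic stalk, anchored by RPLP0, recruits elongation factors. Messengers of ribosomal proteins begin with a run of pyrimidines, the 5-prime TOP motif, through which mTORC1 and LARP1 set their translation. In blood, reticulocytes, the youngest circulating red cells, still carry ribosomes and globin messenger RNA and lose both as they mature, and loss of one copy of a ribosomal protein gene causes Diamond-Blackfan anemia in humans.

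Libraries held 9156431 to 14058050 fragments assigned to genes, of which hemoglobin genes took 26.5% to 62.2%. The value of 1 read, 0.0189 to 0.103 FPKM for a gene of 2 kb, followed median-of-ratios size factors and not the library total, so FPKM here is relative to the typical gene of each library. In 7 libraries the mitochondrially encoded genes took under 1.2% of non-hemoglobin fragments, as low as 0.88%, against 1.28% to 2.53% in the other 33 libraries. These were 3 of the wild-type PBS day 4 mice (1, 3 and 4), 2 of the wild-type PBS day 6 mice (4 and 6), 1 uninduced wild-type mouse and spermine day 6 mouse 2. Ifnar1 itself, read over the whole gene, stood at 13.7 to 23.9 FPKM in the 13 Ifnar1-/- libraries and at 5.85 to 10.3 FPKM in the 27 wild-type libraries; a whole-gene value cannot show whether the deleted part was lost, so the groups are called by their labels.

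The start-site pyrimidine motif is the sequence feature the family is known for, and promoter windows were searched for it. RefSeq entries of build GRCm38.p6 matched 66 members through 78 start sites. Within the 30 bases centred on the start, CTTTC on the gene's own strand was found in 18 of the 78 member windows, or 23.1%, against 4.05% of all 32851 windows. On the opposite strand it was in 3.85% of member windows and 3.60% of all windows. The second form, CTTCC, was in 17.9% of member windows against 6.63% of all on the gene's own strand, and in 12.8% against 7.31% on the opposite strand. Both motifs can overlap, as in Rplp2. Over the 300 bases from 250 before to 50 after the start, on either strand, the ETS and GABP core CCGGAAG was in 34.6% of member promoters against 8.86% of all. The YY1 core AAGATGGC was in 10.3% against 2.75%, the SP1 core GGGCGG in 60.3% against 35.7%, and the TATA box TATAAA in 8.97% against 13.6%. A match is a description of the letters, not evidence of a bound factor. Shown are 8 windows of genes that the results below turn on, 5′ to 3′ on the gene's strand, with 15 bases on each side of the start and matches to CTTTC or CTTCC in capitals. The windows of Rplp0 and Rpl39 hold neither motif.
Rplp0, chr5:115559452-115559481, plus strand: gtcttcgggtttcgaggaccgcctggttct
Rplp2, chr7:141447636-141447665, plus strand: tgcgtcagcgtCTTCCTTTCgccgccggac
Rpl28, chr7:4792950-4792979, plus strand: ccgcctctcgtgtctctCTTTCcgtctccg
Rpl38, chr11:114668565-114668594, plus strand: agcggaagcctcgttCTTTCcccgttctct
Rpl39, chrX:37085208-37085237, minus strand: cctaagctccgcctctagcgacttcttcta
Rpl7a, chr2:26910792-26910821, plus strand: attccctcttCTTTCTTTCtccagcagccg
Rps27, chr3:90213634-90213663, minus strand: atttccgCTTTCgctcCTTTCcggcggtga
Rps27rt, chr9:114982725-114982754, minus strand: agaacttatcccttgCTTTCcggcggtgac

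Most members were abundant. Of the 82 that passed the filter, 49 had a mean above 100 FPKM over the 40 libraries, 26 lay between 10 and 100 FPKM and 7 lay below 10 FPKM. The median of the means was 109.6 FPKM, and 79 members were at 1 FPKM or more in every library. The 2 highest were stalk genes: Rplp1 at 1444 ± 545 FPKM and Rplp0 at 983 ± 429 FPKM (mean ± SD, n = 40). They were followed by Rps3a1 of the small subunit at 590 FPKM, Rpl41, the shortest protein of the large subunit, at 456 FPKM, and Rps15 at 384 FPKM. At the low end stood Rps10 at 1.10 FPKM, Rpl24 at 1.12 FPKM, Rps19bp1 at 2.23 FPKM, Rpl13a at 3.88 FPKM and Rpl7l1 at 5.70 FPKM. The members lie on 19 chromosomes, with 14 on chromosome 7 and 4 on chromosome X. The gene length used for FPKM was a median of 2.36 times the median length of the coding transcripts, over 2 times in 52 members and up to 11.9 times, so FPKM understates most members per transcript. With transcript length in its place Rplp0 ranked 1 and Rplp1 ranked 2.

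For several members, near-identical copies elsewhere in the genome also held reads, and the deposited value of the member may depend on them. At 90% identity or more over at least 80% of the copy, 157 expressed copies were found for 68 members, and 146 of these copies are annotated as pseudogenes. How reads that match several places were counted is not stated in the sources used here. Copies held 97.3% of the reads of Rps10 and its copies, chiefly Rps10-ps2, and 74.7% for Rpl17, 72.7% for Rpl24 and 66.8% for Rpl21. They held 39.0% for Rpl7a and 33.7% for Rpl23a. In all, 4 members had over 50% and 30 had over 10% of such reads in copies. With the reads of its copies added, Rps10, a small-subunit protein near the messenger entry, stood at 45.5 FPKM, 41.4 times its deposited level. Values of Rps10, Rpl17, Rpl21 and Rpl24 are therefore uncertain as levels. With copies added, Rpl24 stood at 4.35 FPKM and Rpl13a at 4.36 FPKM. Reads left uncounted because they match several places would not show in these sums. The low level of Rpl13a is therefore uncertain too. The share in copies also moved between mice for Rpl41, at 2.35% to 52.3% across libraries.

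Rps27 and Rps27rt are a similar pair within the family. RPS27 is a zinc-binding protein of the small subunit, and Rps27rt is an annotated retrogene. Their transcripts in the GENCODE M21 annotation are 345 and 374 bases long, and they align over 341 bases at 100% identity with 0 mismatches, which include all 255 coding bases. The first 90 coding bases, shown because reads from them match both genes equally, are the same:
Rps27: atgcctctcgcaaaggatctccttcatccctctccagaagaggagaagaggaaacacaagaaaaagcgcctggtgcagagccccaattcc
Rps27rt: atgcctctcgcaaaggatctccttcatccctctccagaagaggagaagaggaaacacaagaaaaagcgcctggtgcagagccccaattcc
Across the 40 libraries Rps27 ranged from 16.0 to 340 FPKM, a 21.2-fold span, and Rps27rt from 32.1 to 537 FPKM, a 16.7-fold span. Both summed spanned 6.57-fold. Relative to the median member of the same library, the SD of the log2 level was 1.00 for Rps27 and 0.93 for Rps27rt but 0.42 for their sum. The share of their reads given to Rps27rt was 71.1% to 80.3% in 11 libraries, which came from 7 of the 8 groups, and 11.4% to 52.3% in the other 29 libraries. No library lay between these ranges. A difference between mice in the expression of either gene and a division of shared reads cannot be told apart here. Neither was tested. Changes of either gene alone carry this limit under every scaling. The comparisons below give beside them the log2 difference of both genes summed, for all libraries on the deposited scale and without a test.

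**Figure D1:**
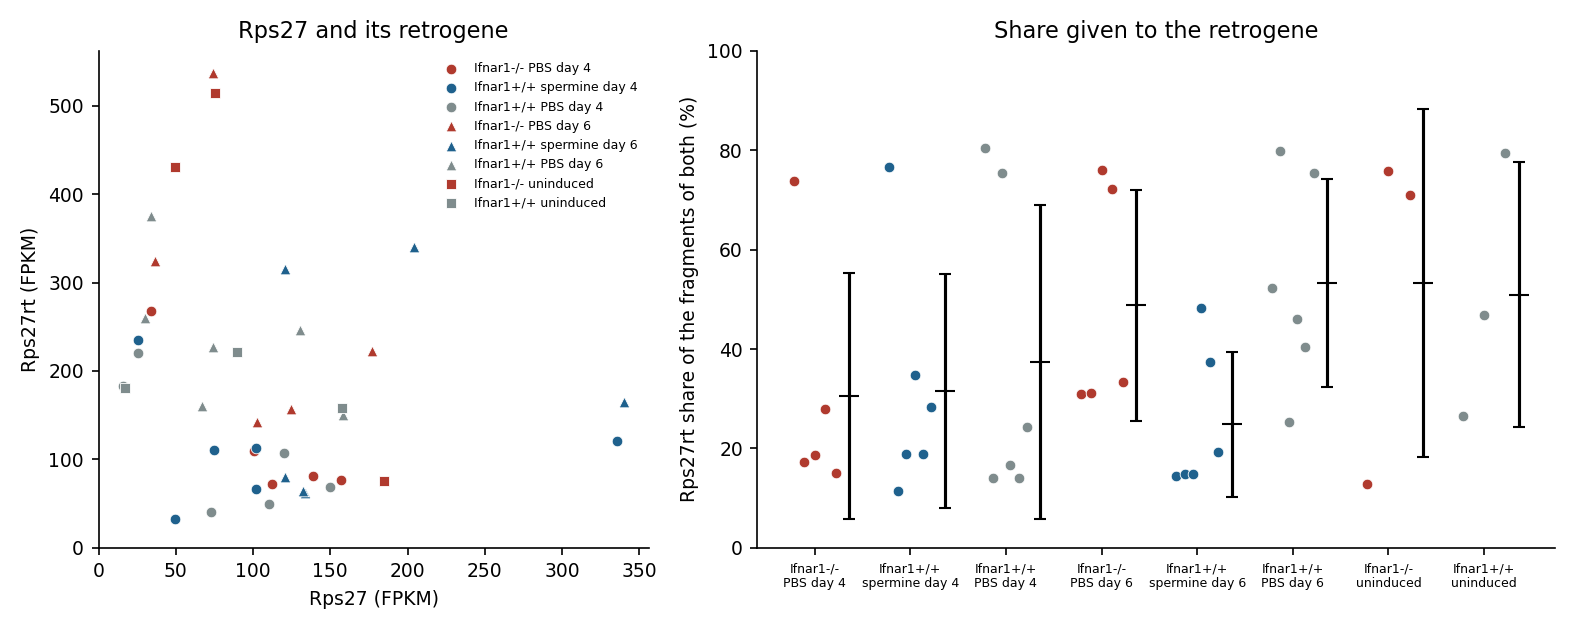
Left, Rps27rt against Rps27, both in FPKM; right, the percent of the fragments of both genes given to Rps27rt, by group, with mean and SD. Each point is 1 mouse of 40, red for Ifnar1-/-, blue for spermine and grey for other wild-type mice. In 11 mice of 7 groups the Rps27rt share is 71.1% or more, and in the other 29 it is 52.3% or less.

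The whole family took a small and fairly steady share of non-hemoglobin fragments, with 2 exceptions. Its 86 members took 4.30 ± 0.36% in Ifnar1-/- PBS day 4 mice, with values of 4.05% to 4.90%, against 3.46 ± 0.82% in wild-type PBS day 4 mice, with values of 2.57% to 4.31%. At day 6 the share was 4.11 ± 0.98% in Ifnar1-/- PBS mice and 3.94 ± 0.79% in wild-type PBS mice (mean ± SD, n = 5 and 6 at each day). The 3 uninduced Ifnar1-/- mice lay at 4.70% to 4.82%, and the 3 uninduced wild-type mice lay at 2.59%, 4.00% and 4.23%, so these groups did not overlap. Spermine mice took 4.90 ± 2.02% at day 4, against 3.46 ± 0.82% in their PBS controls, and 5.23 ± 2.40% at day 6, against 3.94 ± 0.79% (n = 6 each). Their spread came from spermine mouse 2, which stood at 8.93% at day 4 and 9.94% at day 6, while the other 38 libraries lay at 2.57% to 5.38%. Without it the spermine groups were at 4.10 ± 0.47% and 4.28 ± 0.71% (n = 5 each). The labels do not say whether the mouse numbered 2 is the same animal on both days.

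In spermine mouse 2 nearly every member was high. At day 4 it stood above all 5 other mice of its group in 81 of 82 members, at a median of 2.36 times the median of the others, with a range from 1.09 to 5.62 times. The member highest over the others was Rps27a, which encodes a small-subunit protein fused to ubiquitin. At day 6 it stood above the other 5 mice in 78 of 82 members, at a median of 2.96 times, from 0.486 times for Rps10 to 6.70 times for Rpl21. Neither count has a share over all genes beside it, so whether it is particular to the members was not tested. Fau, which encodes a small-subunit protein fused to a ubiquitin-like domain and is not matched by the naming rule, reached 1204 FPKM in 1 spermine day 6 mouse, against a median of 338 FPKM in that group. Values with mouse 2 of both days left out, an alternative added after the data were seen, stand beside the spermine comparisons. At the other end, 6 of the 7 libraries poor in mitochondrial RNA (all but spermine day 6 mouse 2) had family shares of 2.57% to 3.15%, and their summed erythroid markers stood at 34991 to 64376 FPKM.

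**Figure D2:**
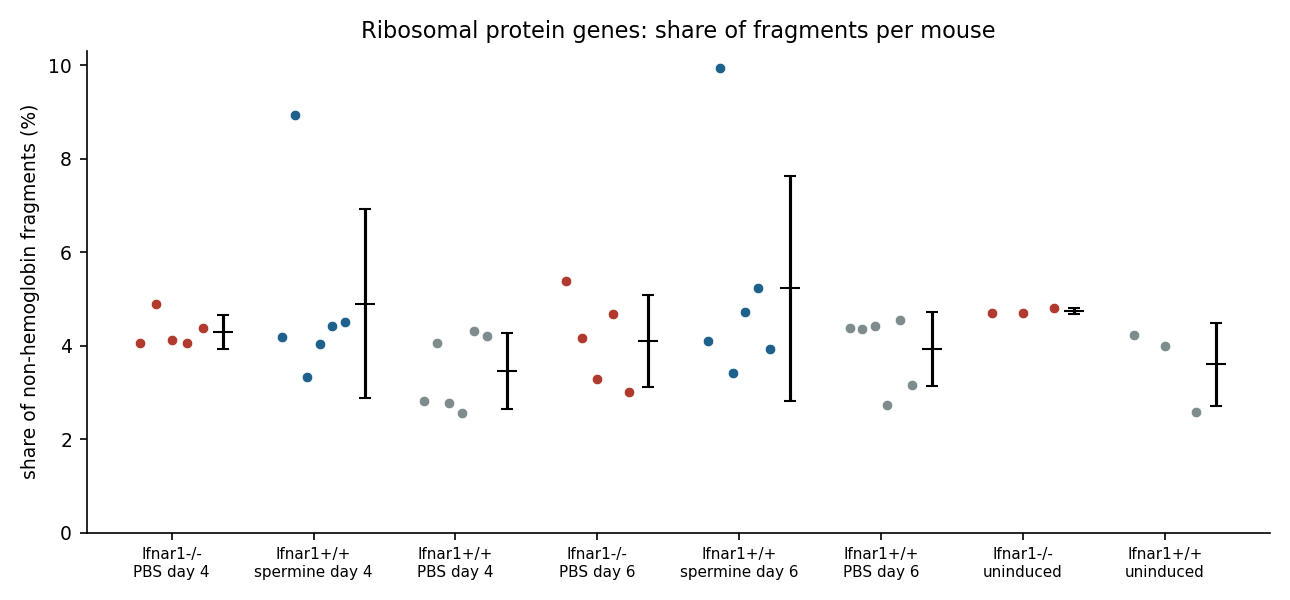
Share of non-hemoglobin fragments taken by the 86 members, in percent, for each mouse of the 8 groups; each point is 1 mouse and the bar shows group mean and SD. Spermine mouse 2 stands at 8.93% on day 4 and 9.94% on day 6, above the other 38 libraries at 2.57% to 5.38%.

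With both spermine mouse 2 libraries kept, members moved largely together between mice of the same group. The first principal component of the 82 members, after each group's mean was taken off, held 65.4% of the variance on the log2 scale and the second held 12.3%. The SD of the median member (log2) was 0.53 and 0.66 in the spermine groups at day 4 and day 6, against 0.09 to 0.35 in the other groups. How much of the first component came from spermine mouse 2 was not tested. The distance of a member from the median member of its library had an SD of 0.21 (log2) for the median gene, so a change of that size in one member relative to the others was ordinary.

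Between Ifnar1-/- and wild-type PBS mice at day 4, the comparison in which most genes differed of the 12 run, 4 members were lower and 0 higher in Ifnar1-/- mice. Over all genes tested, 9.26% were called lower and 9.23% higher, so 4 of 82 members is a smaller share than the background. Calls are at an adjusted p below 0.05 from limma on log2(FPKM + 1), and 18 members had an unadjusted p below 0.05. The lower members were the stalk protein Rplp0, the large-subunit proteins Rpl7 and Rpl39, and Rps12 of the small subunit. The median member change was -0.16 on the log2 scale of the deposited FPKM, beside 0.00 for all genes, and turned positive under fixed library totals (0.50 without hemoglobin, 0.82 with it). By role, the median was -0.66 for the 3 stalk genes, -0.21 for the 43 large-subunit genes and -0.11 for the 31 small-subunit genes.

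Rplp0 had 846, 578, 498, 488 and 646 FPKM in the Ifnar1-/- PBS day 4 mice, against 892 at the lowest, 1359 at the median and 1972 at the highest of the 6 wild-type PBS day 4 mice. Every Ifnar1-/- mouse lay below every wild-type mouse. The log2 difference was -1.16 ± 0.26 (SE, limma adjusted p = 0.00128). Within the wild-type group, the 3 mice poor in mitochondrial RNA were the high ones. With the 7 libraries poor in mitochondrial RNA left out, the difference was -0.73 (limma adjusted p = 0.0336), and it was the 1 member called.

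Rpl7, an RNA-binding protein of the large subunit, had 166, 157, 126, 123 and 157 FPKM in these Ifnar1-/- mice, against 186 to 292 FPKM in wild-type mice, again with no overlap. Its log2 difference was -0.67 ± 0.20 (limma adjusted p = 0.0186). Rps12 had 99.5, 65.1, 74.9, 58.1 and 84.3 FPKM in Ifnar1-/- mice, against 103 to 174 FPKM, median 125 FPKM, in wild-type mice. The Rps12 groups did not overlap and differed by -0.76 ± 0.24 (limma adjusted p = 0.0249). Rpl39, a very short protein of the large subunit's exit tunnel, had 90.004, 71.7, 60.5, 60.2 and 94.9 FPKM in Ifnar1-/- mice and 91.8 to 160 FPKM in wild-type mice, overlapping in 1 Ifnar1-/- mouse, with a log2 difference of -0.74 ± 0.24 (limma adjusted p = 0.0294). Farthest from the median member without being called were Rpl38 at -0.81, Rpl14 at 0.56 and Rps27 at 0.61 (0.36 with Rps27 and Rps27rt summed). With fixed library totals Rpl7 was at 0.03 without hemoglobin and at 0.36 with it, Rps12 at -0.06 and 0.27, and Rpl38 at -0.11 and 0.22, while Rpl14 was called higher, at 1.24 without hemoglobin (limma adjusted p = 0.0135). On the deposited scale 17 members, or 20.7%, lay lower in every Ifnar1-/- mouse than in every wild-type mouse, beside 5.11% of all genes.

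Markers of other cells moved in the same comparison. Of 22 erythroid markers measured, 18 were lower and 1 was higher in Ifnar1-/- PBS day 4 mice; their summed level was 6089 to 16756 FPKM there and 19878 to 64376 FPKM in wild-type PBS day 4 mice, and 0 of the 22 were at 0 in all libraries. All 18 neutrophil markers tested were higher, with sums of 6529 to 8275 FPKM against 1094 to 4134 FPKM. Their part in the members' differences was not tested, and in bulk blood fewer cells of a type and less RNA per cell cannot be told apart.

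Rplp0 and the erythroid markers varied side by side from mouse to mouse. Rplp0 stood at 12.4 to 18.3 times the median member in the 6 libraries with an erythroid sum above 45000 FPKM, and at 4.73 to 13.3 times in the other 34. All of these 6 but Ifnar1-/- PBS day 6 mouse 5, at 45470 FPKM, were among the libraries poor in mitochondrial RNA. Of the other libraries poor in it, uninduced wild-type mouse 3 stood at 12.5 times with an erythroid sum of 34991 FPKM. Spermine day 6 mouse 2 stood at 5.38 times with 12446 FPKM. Which of these traits Rplp0 goes with was not tested. The mouse with the highest erythroid sum of its group also had the highest Rplp0 relative to the median member in 6 of the 8 groups. The mouse with the lowest sum had the lowest Rplp0 ratio in 4 of the 8. Compared within each group between the mice of highest and lowest erythroid sum, 3 members were higher relative to the median member in all 8 groups: Rplp2 by a median log2 of 0.29, Rpl39 by 0.35 and Rpl10, a protein of the large subunit's catalytic side, by 0.21. Rplp0 was higher by 0.67 in 7 of 8 groups, and Rplp1 by 0.37 in 7 of 8. By contrast 13 members, among them Rpl14, Rps25 and Rpl9, were lower in all 8. These genes were chosen after their values were seen, and all genes of a mouse share its library and depth, so no test is given. The counts of members higher or lower in all 8 groups have no share over all genes beside them.

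**Figure D3:**
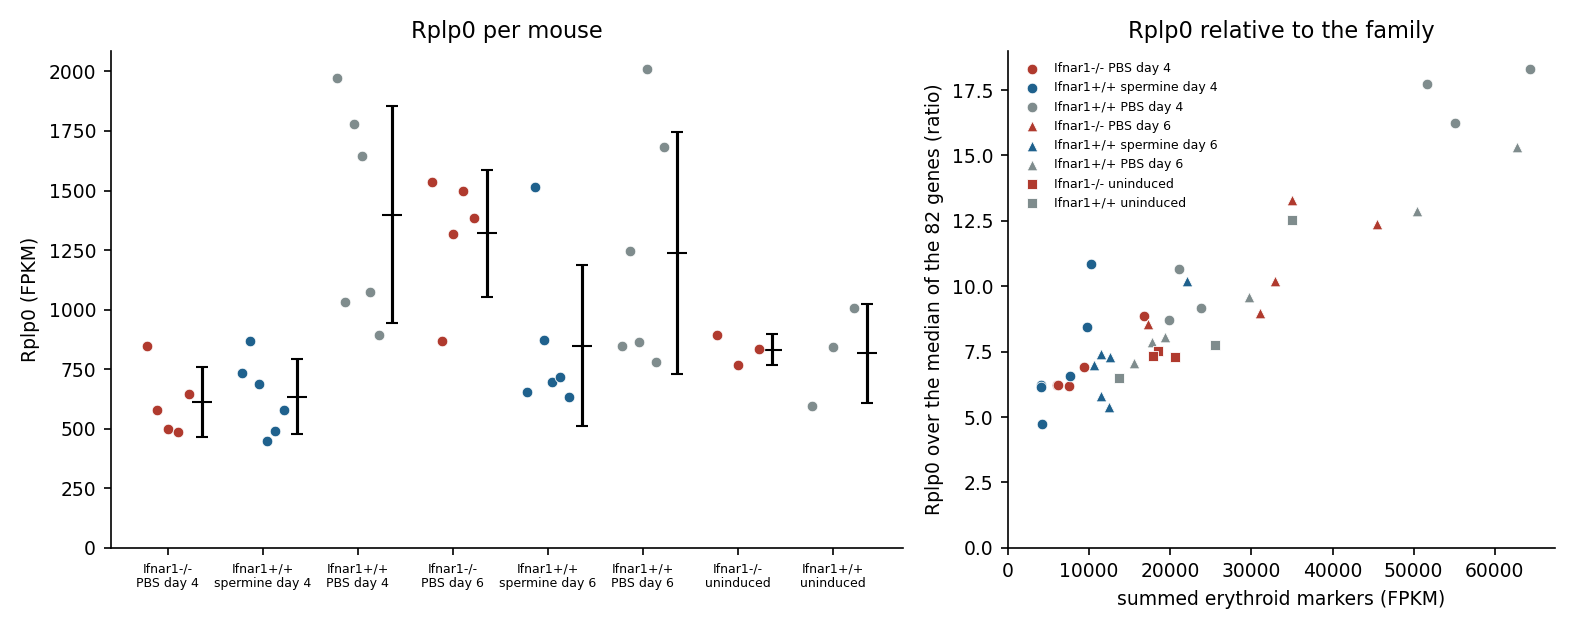
Left, Rplp0 in FPKM by group with mean and SD; right, Rplp0 as a multiple of the median of the 82 genes against the summed level of 22 erythroid markers in FPKM. Each point is 1 mouse, coloured by genotype and treatment and shaped by day. Rplp0 is 12.4 to 18.3 times the median member in the 6 mice with erythroid sums above 45000 FPKM and 4.73 to 13.3 times in the others. All of these 6 but Ifnar1-/- PBS day 6 mouse 5 are among the libraries poor in mitochondrial RNA.

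Spermine mice and PBS mice, both wild type with pristane, also differed at day 4 in 4 members, all lower with spermine. Among all genes 6.48% were lower and 2.65% higher, so the members' 4 of 82 is again below the background share. The wild-type PBS day 4 mice are the controls here and in the genotype comparison, so the lists of called members are not independent. Rplp0 had 448 FPKM at the lowest, 634 at the median and 868 at the highest spermine mouse, against 892, 1359 and 1972 FPKM in PBS mice. The ranges did not overlap, which held for 1 member, or 1.22%, beside 4.29% of all genes. Its log2 difference was -1.11 ± 0.24 (limma adjusted p = 0.00164), and with the 7 libraries poor in mitochondrial RNA left out it was -0.69 (limma adjusted p = 0.0593).

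Rpl39 had 43.8, 67.4 and 145 FPKM at the lowest, median and highest spermine mouse, against 91.8, 131 and 160 FPKM in PBS mice, a log2 difference of -0.82 ± 0.23 (limma adjusted p = 0.016). Rpl28, on the outer face of the large subunit, had 52.1, 67.7 and 145 FPKM with spermine, against 100.4, 121 and 141 FPKM, and differed by -0.71 ± 0.23 (limma adjusted p = 0.0425). In both genes spermine mouse 2 was the highest of its group. Without mouse 2 of both days, 33 members were lower with spermine at day 4 and 0 higher (limma), beside 7.22% of all genes lower and 3.07% higher, and the median member change was -0.32. Rplp0 was then at -1.21 (limma adjusted p = 0.000408), Rpl39 at -1.03 (limma adjusted p = 0.00051), and Rpl28 at -0.90 (limma adjusted p = 6.96e-05). Without day 4 mouse 2 alone, 15 members were called. Day 6 mouse 2 is not in this comparison and acts on it only through the estimate of spread shared by all groups. With hemoglobin in a fixed library total Rpl39 was at 0.21 and Rpl28 at 0.33, and without it Rpl28 was at 0.04. Not called were Rpl30 at 0.42 and Rpl14 at 0.46, the members farthest above the median member change of -0.11, which was 0.60 and 0.87 under fixed totals without and with hemoglobin. Erythroid markers were lower in 19 of 22, with sums of 4094 to 10227 FPKM with spermine against 19878 to 64376 FPKM in PBS mice, and 12 of 18 neutrophil markers were higher and 2 lower. Their part in the members' values was not tested.

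At day 6 limma called 0 members between spermine and PBS mice, with 6 at an unadjusted p below 0.05 and 0 by voom on the recovered reads, beside 0.0423% of all genes. The median member change was 0.02. Rplp0 had 632, 707 and 1516 FPKM at the lowest, median and highest spermine mouse, against 782, 1056 and 2009 FPKM in PBS mice, and these ranges overlapped (log2 difference -0.52). Rpl39 differed by -0.54, Rpl41 by -0.58, Rps27rt by -0.75, Rps27a by 0.80 and Rps27 by 1.22 (0.43 with Rps27 and Rps27rt summed), none of them called. Without mouse 2 of both days 0 members were called (limma; 0.0761% of all genes higher and 0.101% lower), the median member change was -0.23, Rplp0 was at -0.71 and Rpl39 at -0.67. With hemoglobin in a fixed library total 31 members were higher and 0 lower, beside 28.1% of all genes higher and 1.12% lower. The member median was then 0.63, beside 0.42 for all genes, with Rps27a at 1.42 and Rps27 at 1.85 called, and Rpl39 at 0.09, Rpl41 at 0.06 and Rplp0 at 0.12 not called. Without hemoglobin in the total the median was 0.42 and 0 were called. The test of whether the spermine difference changed with the day called 0 members, with 0 at an unadjusted p below 0.05 in limma and 0 called by voom, beside 0.0169% of all genes.

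Between days 6 and 4, members were higher at day 6 in Ifnar1-/- PBS mice on the deposited scale, where the median member change was 0.46, but not under fixed library totals, where it was -0.20 without hemoglobin and -0.57 with it. On the deposited scale 5 of 82 were higher and 0 lower, beside 5.75% of all genes higher and 0.465% lower, a share close to the background. All genes had a median of -0.04, 36 members had an unadjusted p below 0.05, and 24 members, or 29.3%, were higher in every day 6 mouse than in every day 4 mouse, beside 6.24% of all genes. Rplp0 had 868 FPKM at the lowest, 1385 at the median and 1536 at the highest day 6 mouse, against 488, 578 and 846 FPKM at day 4, with no overlap and a log2 difference of 1.11 ± 0.27 (limma adjusted p = 0.00703). Rpl7 had 297, 233, 235, 283 and 258 FPKM at day 6, against 166, 157, 126, 123 and 157 FPKM at day 4, and differed by 0.84 ± 0.21 (limma adjusted p = 0.0102). All of its day 6 mice lay above all of its day 4 mice.

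The other 3 higher members were large-subunit proteins. Rpl34 had 86.1, 57.4, 81.9, 94.6 and 64.0 FPKM at day 6, against 46.2, 48.2, 39.0, 45.1 and 49.6 FPKM at day 4, and differed by 0.72 ± 0.22 (limma adjusted p = 0.0354). Rpl10 had 301, 226, 251, 309 and 306 FPKM at day 6, against 218, 185, 164, 157 and 195 FPKM at day 4, and differed by 0.59 ± 0.18 (limma adjusted p = 0.0423). Neither gene's groups overlapped. With hemoglobin in a fixed total Rpl7 was at -0.22 and Rpl34 at -0.33. Rpl39 differed by 0.80 ± 0.25 (limma adjusted p = 0.0498). Rpl21 at 1.22 and Rps27rt at 1.203 lay farthest above the median member and Rpl13a at -0.16 and Rps27 at -0.09 farthest below, none called. With Rps27 and Rps27rt summed the difference was 0.38. With the reads of its copies added, Rpl21 was higher by 0.85 (limma adjusted p = 0.0462). In the same comparison 20 of 22 erythroid markers were higher, with sums of 17221 to 45470 FPKM at day 6 against 6089 to 16756 FPKM at day 4, and 11 of 12 platelet markers were higher, with sums of 1743 to 2601 FPKM against 741 to 1641 FPKM. Their part was not tested.

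In wild-type PBS mice 0 members were called between days 6 and 4 (limma; 2 at an unadjusted p below 0.05; 0 by voom; 0.473% of all genes), with a median member change of 0.18. Rplp0 differed by -0.21, Rplp2 by -0.13, Rpl30 by 0.59, Rpl41 by 0.59 and Rps27rt by 1.28 (0.47 with Rps27 and Rps27rt summed). The difference between genotypes in the change with day was tested directly, and limma called 0 members, with 7 at an unadjusted p below 0.05 and 1 by voom, beside 1.67% of all genes. Rplp0 came nearest, at 1.32 ± 0.36 (limma adjusted p = 0.0511). In wild-type spermine mice 0 members were called between the days (limma; 14 at an unadjusted p below 0.05; 0 by voom; 0.617% of all genes), with a median of 0.38. Rpl37 at 0.75 and Rpl37a at 0.72, both large-subunit zinc-finger proteins, had the smallest p. Rps27 differed by 0.95 (0.73 with Rps27 and Rps27rt summed), Rpl38 by 0.80, Rplp0 by 0.38, Rps12 by -0.05 and Rps10 by -0.06. Without mouse 2 of both days Rpl37 was called higher at day 6, at 0.80 (limma adjusted p = 0.0372), as 1 member beside 0.262% of all genes higher, and the median was 0.32. Without day 4 mouse 2 alone 5 members were called.

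**Figure D4:**
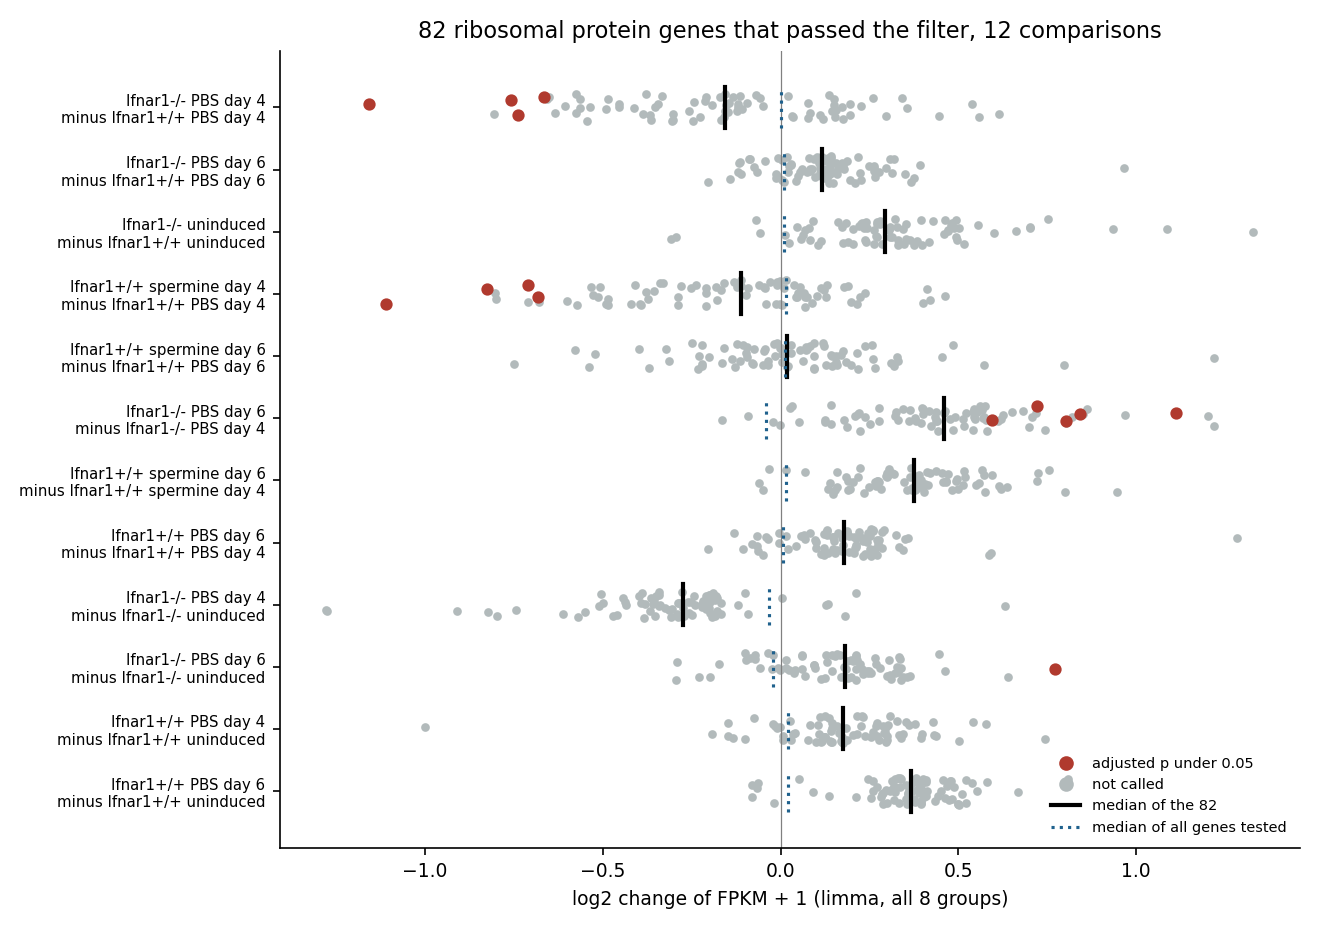
log2 change of each of the 82 tested members in each comparison, first-named group minus second, on the log2(FPKM + 1) scale. Red points are members called at an adjusted p below 0.05, grey points are not called, the black bar is the median member and the dotted line the median of all genes. On the deposited scale, in Ifnar1-/- minus wild-type PBS mice at day 4 the 4 called members lie at -1.16 to -0.67, and in Ifnar1-/- PBS mice at day 6 minus day 4 the 5 called members lie at 0.59 to 1.11.

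At day 6 the genotypes were not told apart in any member by limma (0 called, 1 at an unadjusted p below 0.05, 0 by voom), beside 3.20% of all genes. The median member change was 0.12. Rplp0 had 868 to 1536 FPKM in Ifnar1-/- mice, against 782 to 2009 FPKM in wild-type mice, a difference of 0.16. Rpl21 differed by 0.96, Rps27 by 0.39 (0.27 with Rps27 and Rps27rt summed), Rplp2 by 0.38, Rpl39 by -0.14 and Rps15a by -0.20.

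Uninduced mice also gave 0 called members between genotypes (limma; 3 at an unadjusted p below 0.05; 0 by voom; 0.406% of all genes), but most members were higher in Ifnar1-/- mice. The median was 0.29, and 34 members, or 41.5%, were higher in all 3 Ifnar1-/- mice than in all 3 wild-type mice, beside 10.1% of all genes. Rps13, a small-subunit protein, had 63.1, 66.8 and 74.4 FPKM in Ifnar1-/- mice, against 15.4, 35.99 and 55.6 FPKM in wild-type mice (log2 difference 1.09). Rpl21 had 18.2, 19.7 and 21.3 FPKM in Ifnar1-/- mice, against 5.80, 6.92 and 9.34 FPKM in wild-type mice (1.33, and 0.54 with the reads of its copies added). Neither gene overlapped. Rpl7a at -0.31 and Rpl24 at -0.30 were farthest below the median member, and Rplp0 differed by 0.06. The wild-type mouse at the low end of Rps13 was among the libraries poor in mitochondrial RNA. The summed level of 18 T cell markers was 499 to 519 FPKM in uninduced Ifnar1-/- mice and 298 to 441 FPKM in uninduced wild-type mice, and that of 18 neutrophil markers was 867 to 960 FPKM in Ifnar1-/- mice and 404 to 682 FPKM in wild-type mice. In each list 1 marker was called higher and 0 lower, and their part in the members' values was not tested.

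Against uninduced mice of the same genotype, 1 member was called after pristane. Rpl7a, a large-subunit protein, had 24.2, 20.5, 25.3, 25.3 and 19.1 FPKM in Ifnar1-/- PBS day 6 mice, against 10.9, 11.9 and 16.6 FPKM in uninduced Ifnar1-/- mice. The groups did not overlap, and the log2 difference was 0.77 ± 0.23 (limma adjusted p = 0.0259; 0.158 with the reads of its copies added). That is 1 higher of 82, beside 8.57% of all genes higher and 3.19% lower. The call was lost under both fixed totals, and 2 members had an unadjusted p below 0.05. The median member change was 0.18, and -0.31 and -0.20 under fixed totals without and with hemoglobin. Rplp0 differed by 0.64 and was not called, and Rpl30 and Rps10 each stood at -0.29. In the same comparison 13 of 22 erythroid markers were higher, with sums of 17221 to 45470 FPKM against 17830 to 20579 FPKM. Neutrophil markers were higher in 17 of 18, with sums of 5560 to 8925 FPKM against 867 to 960 FPKM, and the part of either list was not tested.

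At day 4 the Ifnar1-/- PBS mice stood below uninduced Ifnar1-/- mice in most members, though 0 were called (limma; 5 at an unadjusted p below 0.05; 0 by voom; 8.12% of all genes). The median was -0.28, and -0.09 or 0.38 under fixed totals without or with hemoglobin. On the deposited scale 39 members, or 47.6%, were lower in every day 4 mouse, beside 10.1% of all genes. Rpl21 differed by -1.28, Rps27rt by -1.28 (-0.57 with Rps27 and Rps27rt summed), Rplp0 by -0.47, Rps27l by 0.21 and Rpl7a by 0.63. A fit of only these 2 groups called 1 member higher and 16 lower, beside 10% of all genes higher and 5.22% lower. With the 7 libraries poor in mitochondrial RNA left out, 1 was higher and 1 lower, beside 8.47% and 3.20% of all genes. Erythroid sums were 6089 to 16756 FPKM at day 4 against 17830 to 20579 FPKM in uninduced Ifnar1-/- mice, with 0 of 22 markers called. Neutrophil markers were higher in 17 of 18, with sums of 6529 to 8275 FPKM against 867 to 960 FPKM. Their part in the members' values was not tested.

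Wild-type PBS day 4 mice differed from uninduced wild-type mice by a median of 0.17, or -0.14 and -0.11 under fixed totals without and with hemoglobin, with 0 members called (limma; 1 at an unadjusted p below 0.05; 0 by voom; 2.10% of all genes). There Rplp0 differed by 0.74, Rps13 by 0.58, Rps2 by 0.50, Rpl30 by -0.19 and Rps27rt by -1.001 (-0.29 with Rps27 and Rps27rt summed). Day 6 differed by a median of 0.37 with 0 called (limma; 4 at an unadjusted p below 0.05; 0 by voom; 8.17% of all genes), where Rps13 stood at 0.81, Rps19bp1 at 0.67, Rpl23a at 0.58, Rplp0 at 0.54, and Rpl24 and Rpl38 at -0.08. At day 6, 20 members, or 24.4%, were higher in every pristane mouse, beside 7.13% of all genes. Neutrophil markers were higher in 14 of 18 at day 4 and 16 of 18 at day 6, with sums of 1094 to 4134 FPKM and 1540 to 5658 FPKM against 404 to 682 FPKM in uninduced wild-type mice, and their part was not tested. Tests of whether the change from uninduced to pristane mice differed between genotypes called 0 members at day 4 (limma; 9 at an unadjusted p below 0.05; 0 by voom; 0.254% of all genes; Rplp0 at -1.22) and 0 at day 6 (0; 0 by voom; 0.0254%).

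The median member change turned its sign under 1 or both fixed library totals in 6 of the 12 comparisons and kept it under both in the other 6. Those that turned were Ifnar1-/- against wild-type PBS mice at day 4, spermine against PBS mice at day 4, Ifnar1-/- PBS mice at day 6 against day 4, Ifnar1-/- PBS mice of either day against uninduced mice, and wild-type PBS day 4 against uninduced mice. The deposited FPKM puts the typical gene level in each library, and its all-gene medians stayed between -0.04 and 0.02. Between Ifnar1-/- and wild-type PBS mice at day 4, for instance, the family's FPKM was lower at the median while its share of non-hemoglobin fragments was 4.30% against 3.46%. When each library was instead scaled to a fixed total of non-hemoglobin fragments, the median of all genes moved to 0.45 between Ifnar1-/- and wild-type PBS mice at day 4, and the members moved with it, to a median of 0.50, with 24 called higher and 1 lower, beside 54.3% of all genes higher and 3.50% lower. In spermine against PBS mice at day 4 the median of all genes was 0.51 and that of members 0.60, with 41 higher and 1 lower, beside 65.9% of all genes higher and 3.97% lower. In Ifnar1-/- PBS mice at day 6 against day 4 the medians were -0.48 and -0.20, with 1 higher and 2 lower, beside 3.90% of all genes higher and 54.8% lower. With hemoglobin kept in the total, 64 members were higher in the first comparison, 70 higher in the second and 31 lower in the third, beside 72.1% of all genes higher, 77% higher and 74.4% lower. Rplp0 kept its direction in these 3 comparisons without hemoglobin in the total, at -0.46 (limma adjusted p = 0.0101), -0.35 (limma adjusted p = 0.0264) and 0.44 (limma adjusted p = 0.0173). With hemoglobin it was at -0.13, -0.06 and 0.05, none called.

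**Figure D5:**
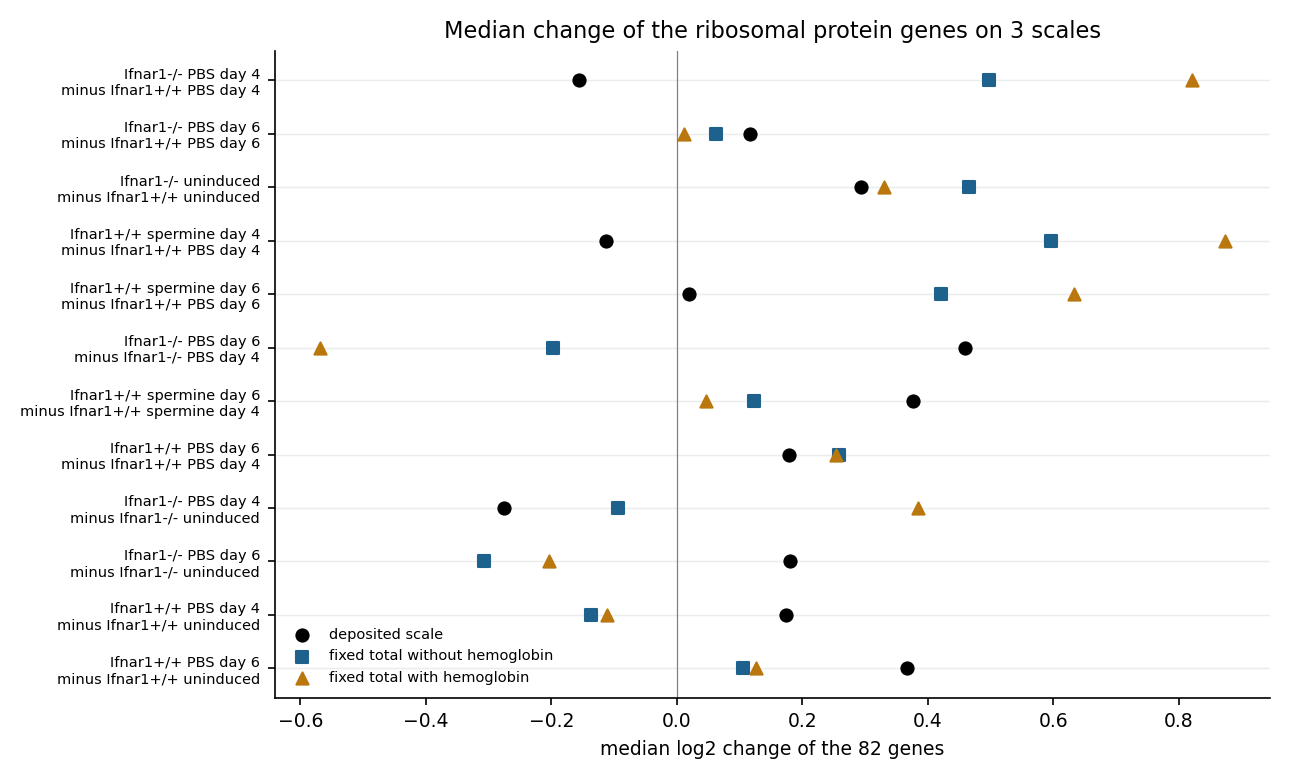
Median log2 change of the 82 members in the 12 comparisons on the deposited FPKM scale (circles) and under fixed library totals without (squares) and with (triangles) hemoglobin. Between Ifnar1-/- and wild-type PBS mice at day 4 the member median is -0.16 on the deposited scale, 0.50 without hemoglobin and 0.82 with it.

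In each paralog pair listed, the paralog averaged below its canonical partner. The retrogene Rps27rt is in none of these pairs and reached 537 FPKM. Rpl22l1, a paralog of Rpl22 of the large subunit, averaged 8.14 FPKM beside 31.4 FPKM for Rpl22, or 25.9% of it. Rps27l averaged 7.62 FPKM beside 109 FPKM for Rps27, or 6.99%. Since the coding bases of Rps27 and Rps27rt are the same, this ratio may depend on how reads were divided. Rps27rt held 11.4% to 80.3% of the reads of both. Rpl3l, known from striated muscle, was at 0 in 22 libraries, and Rpl39l and Rpl36al never passed 0.395 FPKM. Rps4l, annotated as a pseudogene, averaged 1.21 FPKM, 0.435% of Rps4x. The log2 ratio of paralog to partner was compared in the 12 pairs of groups for the 2 pairs expressed. Of 24 two-sided exact permutation tests 0 had p below 0.05, and the smallest adjusted p was 0.8; comparisons of 3 against 3 mice cannot go below 0.1. Within Ifnar1-/- PBS day 4 mice the Rpl22l1 level was 22.7% to 39.1% of Rpl22, against 14.5% to 32.3% in wild-type PBS day 4 mice, and these overlapped.

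Genes that work with the family were counted in the comparisons where members were called. The list of 26 translation factors and other genes with a 5-prime TOP motif had 5 lower and 0 higher in Ifnar1-/- against wild-type PBS mice at day 4, beside 9.26% of all genes lower, and a median of -0.22. These included Pabpc1, the poly-A binding protein, at -1.58, Tpt1 at -1.31 and Eef1d, an elongation factor subunit, at -1.17, with Eef2 and Eif3k also lower. With spermine at day 4, 6 were lower, beside 6.48% of all genes, with a list median of -0.13, among them Pabpc1 at -2.37, Tpt1 at -1.42, Eif3k at -1.04, Eef1d and the non-coding host gene Snhg1. In Ifnar1-/- PBS mice at day 6 against day 4, 4 were higher, beside 5.75% of all genes, with a list median of 0.38: Pabpc1 at 1.803, Eef1d at 1.44, Tpt1 at 1.15 and Eif3k at 1.03. Pabpc1 was also called in the test of genotype by day, at 2.22 (limma adjusted p = 0.0297). The ribosome-associated proteins Fau and Rack1 were called in none of the 12 comparisons.

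Of 45 ribosome biogenesis factors, 5 were lower and 0 higher in Ifnar1-/- PBS day 4 mice against wild-type PBS day 4 mice, beside 9.26% of all genes lower, with a list median of 0.02: Dkc1, the pseudouridine synthase of ribosomal RNA, at -0.87, Ncl, nucleolin, at -0.48, Rrp12 at -0.41, and Heatr1 and Nop58. With spermine at day 4 Dkc1 was lower by -0.53. Nolc1 was lower in Ifnar1-/- PBS day 6 mice against uninduced ones, at -0.41, and Taf1d was lower in wild-type PBS day 6 mice against uninduced ones, at -0.37. Of 18 regulators of ribosome synthesis, 3 were lower in Ifnar1-/- PBS day 4 mice against wild-type ones, beside 9.26% of all genes. They were Larp1, the binder of TOP messengers, at -0.48, Tsc2, a brake on mTORC1, at -0.42, and Max, the partner of Myc, at -0.57. Eif4ebp1, a translation repressor under mTORC1, was higher in Ifnar1-/- PBS day 6 mice than in uninduced Ifnar1-/- mice, at 0.91, and than in wild-type PBS day 6 mice, at 0.85. Its level was 19.4 ± 4.5 FPKM there, against 9.71 ± 1.63 FPKM in uninduced Ifnar1-/- mice and 10.2 ± 1.9 FPKM in wild-type PBS day 6 mice. Of 73 mitochondrial ribosomal proteins, set beside the cytosolic ones, 4 were higher and 1 lower in Ifnar1-/- PBS day 4 mice against wild-type ones. Over all genes 9.23% were higher and 9.26% lower there, so this list lay below the background in both directions. Among those called were Mrpl14 at 0.89, Mrpl33 at 0.81 and Mrpl32 at -0.73. Mrpl32 was also lower with spermine at day 4, at -1.01, and higher in Ifnar1-/- PBS mice at day 6 than at day 4, at 1.15.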

How the data were processed

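The authors deposited 1 table of FPKM values per gene for 40 libraries of whole blood, each 1 mouse; 0 columns were unmapped. Per the submitters' processing notes DESeq2 1.20.0, featureCounts 1.5.0-p3, HISAT2 2.0.5, CASAVA 1.8 and fastp were used on GRCm38; the step each one did, and the handling of reads that match several places, are not given in the sources used here. FPKM divided by the value of 1 read gave whole reads within 0.001 for 100% of non-zero values. The value of 1 read multiplied by a median-of-ratios size factor (over 11308 genes above 0 in every library) was equal in all libraries, so the deposited FPKM carries that scaling.

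Differences were tested with limma 3.58.1 (R 4.3.3, trend) on log2(FPKM + 1) over 8 groups together, on the 11829 genes that reached 1 FPKM in 3 or more libraries, with Benjamini-Hochberg adjustment over all of them and a threshold of 0.05. A change on this scale understates that of low genes. In simulated data of the genotype comparison at day 4, with noise drawn independently for each gene, the fit recovered 81% of 2-fold changes (log2 of 1). Recovery ran from 70% between uninduced genotypes to 87% in Ifnar1-/- PBS mice at day 6 against day 4. The members moved together and included outlying libraries, so these rates may not hold for them. Copies were found with BLAST 2.17.0. Paralog ratios were tested with exact permutation (scipy 1.17.1). Alternatives were another pseudocount, no filter, fits of only the groups compared, fixed library totals, voom, a replicate block, and leaving out mice.

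Named genes are, for each comparison, the 3 called members in each direction of smallest p (or the 2 of smallest p where 0 were called), the 2 farthest above and below the median member, the 5 highest and 5 lowest in level, the paralog pairs, Fau and Rack1, and up to 3 called genes per list; other names were chosen after their values were seen, and a few genes are not reported here. The members and lists were chosen with earlier results of these data known.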

Additional observations from a re-analysis of the deposited data

Results flagged for a closer look

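In groups of 5 or 6 mice, 14 measures were searched for a mouse whose gap to the nearest other mouse was large beside the range of its group. Of 84 checks of a measure in a group, 20 held one. Chance would give about 1 in 20 for independent measures, but members moved together. Most of those flagged were spermine mouse 2, counted again in several measures, so the count cannot be set against that rate. At day 4 it had a family share of 8.93% against 3.33% to 4.52% in the others. It had 283 FPKM of Rpl7 (others 121 to 163), 145 of Rpl39 (43.8 to 77.7), 145 of Rpl28 (52.1 to 75.3), 93.5 of Rpl34 (35.9 to 54.5) and 336 of Rps27 (25.7 to 102). At day 6 the share was 9.94% against 3.41% to 5.25% in the others. There it had 1516 FPKM of Rplp0 (others 632 to 874), 406 of Rpl7 (157 to 197), 228 of Rps12 (74.7 to 94.6), 285 of Rpl28 (81.6 to 120.3), 156 of Rpl34 (54.2 to 79.5), 409 of Rpl10 (178 to 191) and 53.5 of Rpl21 (5.15 to 19.4).

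Ifnar1-/- PBS day 4 mouse 1 stood apart in Rplp0, at 8.85 times the median member (others 6.199 to 6.93), and gave Rps27rt 73.8% of the reads of Rps27 and Rps27rt (others 15.0% to 28.0%) at 268 FPKM (others 71.7 to 109). Spermine day 4 mouse 1 gave Rps27rt 76.6% of those reads (others 11.4% to 34.7%). Wild-type PBS day 6 mouse 4 had 227 FPKM of Rpl39 (others 116 to 145), and mouse 2 of that group had 25.4 FPKM of Rpl21 (others 6.06 to 8.17).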

How the results depend on the processing

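The scale moved many results. With a fixed total without hemoglobin, members called were 25 between Ifnar1-/- and wild-type PBS mice at day 4, 42 with spermine at day 4, 3 in Ifnar1-/- PBS mice at day 6 against day 4, 0 against uninduced Ifnar1-/- mice at day 6 and 1 for genotype by day. Of these 24, 41 and 1 were higher in the first 3, as was the 1 for genotype by day. Over all genes, in the same order, 54.3%, 65.9%, 3.90%, 3.53% and 2.15% were higher. The shares of all genes lower were 3.50%, 3.97%, 54.8%, 14.2% and 27.8%. Member medians were then 0.50, 0.60, -0.20 and -0.31 in the first 4 of these comparisons. They were -0.14 and 0.11 in wild-type PBS mice at day 4 and day 6 against uninduced mice, -0.094 in Ifnar1-/- mice at day 4 against uninduced mice and 0.47 between uninduced genotypes. With hemoglobin the counts were 64 higher, 70 higher, 31 lower, 0 and 29 lower in the same order. Over all genes 72.1% were higher, 77% higher, 74.4% lower, 2.01% higher or 0.568% lower, and 60.5% lower. For spermine at day 6, 31 were higher, beside 28.1% of all genes. For Ifnar1-/- mice at day 4 against uninduced mice 1 was higher, beside 18.6%. The member medians were 0.82, 0.87, -0.57 and -0.20, then -0.11 and 0.13 in wild-type mice against uninduced mice, 0.38 in Ifnar1-/- mice at day 4 against uninduced mice and 0.63 for spermine at day 6. The construction of these totals moves all genes together, at the median by up to -0.74 (log2) in the 12 comparisons and -0.78 in genotype by day.

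Without a filter 2 members were lower with spermine at day 4, beside 2.37% of all genes. In Ifnar1-/- mice at day 6 against day 4, 2 were higher, beside 1.95%. Fits of only the groups compared called 17 members in Ifnar1-/- day 4 against uninduced mice. Of these 1 was higher and 16 lower, beside 10% and 5.22% of all genes. Between genotypes at day 4, 25 were lower, beside 9.47%, and with spermine at day 4, 1 was lower, beside 5.38%. In Ifnar1-/- mice at day 6 against day 4, 20 were higher, beside 7.07%. Voom called 8 higher in that last comparison, beside 6.64% of all genes, and 1 higher for genotype by day, beside 1.86%. The 7 libraries poor in mitochondrial RNA were also left out. In Ifnar1-/- day 4 against uninduced mice 1 was then higher and 1 lower, beside 8.47% and 3.20% of all genes. At day 6 against uninduced mice 2 were higher, beside 13.3%. Between genotypes at day 4, 1 was lower, beside 2.57%. With spermine at day 4, 0 were called (limma), beside 0.955% higher and 3.23% lower. In Ifnar1-/- mice at day 6 against day 4, 23 were higher, beside 9.01%, and for genotype by day 1 was higher, beside 2.44%. Without spermine mouse 2 of both days, 33 were lower with spermine at day 4, beside 7.22% of all genes. Between the days with spermine 1 was higher, beside 0.262%. With copies added, 0 were called in Ifnar1-/- day 6 against uninduced mice, beside 8.56% of all genes higher and 3.19% lower. The family share of uninduced Ifnar1-/- mice was 4.98% with pseudogenes added, and the alternative with a changed list of members is not given. The cause of these moves was not tested.

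Leaving out 1 mouse at a time gave 1 to 5 called members between genotypes at day 4 (2 without Ifnar1-/- mouse 2, and 1 without Ifnar1-/- mouse 3 or 4 or wild-type mouse 1 or 3), and 1 to 15 with spermine at day 4 (15 without spermine mouse 2, and 1 or 2 without any other spermine mouse or without PBS mouse 1, 3 or 4). It gave 2 to 12 in Ifnar1-/- mice at day 6 against day 4 (12 without day 6 mouse 2; 2 or 3 without any other day 6 mouse or day 4 mouse 2, 3 or 4), 0 to 1 at day 6 against uninduced Ifnar1-/- mice (0 without day 6 mouse 3 or uninduced mouse 1 or 2), 0 to 1 in wild-type day 6 against uninduced mice (1 without uninduced mouse 2), 0 to 5 between the days with spermine (5 without day 4 mouse 2) and 0 to 1 for genotype by day. Rplp0 stayed called in every such fit of the genotype and spermine comparisons at day 4 and of day 6 against day 4 in Ifnar1-/- mice.

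Single genes changed sign as follows. Without hemoglobin in the total Rpl7 was at 0.030 between genotypes at day 4, Rpl28 at 0.039 with spermine at day 4 and Rplp0 at -0.12 for genotype by pristane at day 6. With hemoglobin, between genotypes at day 4, Rpl38 was at 0.22, Rpl7 at 0.36 and Rps12 at 0.27. With spermine at day 4 Rpl39 was at 0.21 and Rpl28 at 0.33, and at day 6 Rpl39 was at 0.094, Rpl41 at 0.060 and Rplp0 at 0.12. In Ifnar1-/- mice Rpl7 was at -0.22 and Rpl34 at -0.33 at day 6 against day 4, Rplp0 at 0.20 at day 4 against uninduced mice, and at -0.041 for genotype by pristane at day 6. With those 7 libraries left out Rps27 was at -0.37 between genotypes at day 4, Rps15a at 0.0038 and Rpl39 at 0.024 between genotypes at day 6, Rpl14 at -0.080 with spermine at day 4 and Rps10 at 0.0096 between the days with spermine. Rps10 there was at 0.13 without spermine mouse 2 of both days and at 0.32 with copies added. With copies added Rpl24 was at 0.24 and Rpl38 at 0.020 in wild-type day 6 against uninduced mice, and Rps10 at 0.17 in Ifnar1-/- day 6 against uninduced mice. With a pseudocount of 1 the paralog ratio of Rpl22l1 was at 0.0031 in Ifnar1-/- day 4 against uninduced mice, and that of Rps27l at -0.075 and -0.023 between genotypes at day 4 and day 6.

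Leaving out 1 mouse spanned 0 for Rpl24 (-0.43 to 0.11) and Rpl38 (-0.17 to 0.056) in wild-type day 6 against uninduced mice, Rpl39 (-0.26 to 0.0018) between genotypes at day 6, Rplp0 between uninduced genotypes (-0.15 to 0.23) and for genotype by pristane at day 6 (-0.065 to 0.31), Rps10 (-0.13 to 0.062) and Rps12 (-0.29 to 0.11) between the days with spermine, and Rps27 (-0.46 to 0.23) in Ifnar1-/- mice at day 6 against day 4. The ratio of Rpl22l1 to Rpl22 did so in Ifnar1-/- day 4 against uninduced mice (-0.13 to 0.074), between genotypes at day 6 (-0.16 to 0.027), in wild-type day 4 against uninduced mice (-0.021 to 0.34) and in wild-type PBS mice at day 6 against day 4 (-0.018 to 0.23). The ratio of Rps27l to Rps27 did so in Ifnar1-/- mice at day 4 (-0.41 to 0.52) and day 6 (-0.35 to 0.58) against uninduced mice, between genotypes at day 4 (-0.34 to 0.29) and day 6 (-0.21 to 0.26), and between uninduced genotypes (-0.76 to 0.31). It also did so in wild-type mice at day 4 (-0.67 to 0.28) and day 6 (-0.61 to 0.34) against uninduced mice, and at day 6 against day 4 in Ifnar1-/- (-0.17 to 0.42) and wild-type (-0.18 to 0.33) PBS mice.

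The labels do not say that replicate numbers pair mice. Correlations of same-numbered deviations were -0.365 to 0.691; between the days with spermine 5 of 6 pairs were over 0.1 and the lowest was 0.0496, with 2 of 6 correlating best with their own number, so the criterion that every pair be over 0.1 was missed, and whether these mice pair is not known. With a replicate block, Rplp0 was at -1.18 (limma adjusted p = 0.00233) between genotypes at day 4, no count moved by over 1.5 times, and 70 of 71 named results kept direction and call. Depth limits members below 10 FPKM, where 1 read is worth up to 0.103 FPKM for a gene of 2 kb.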
